A study of Mus musculus with 93 samples.

Results

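The 10 genes Kdr, Flt1, Tek, Tie1, Pecam1, Cdh5, Emcn, Etv2, Tal1 and Lmo2 mark blood vessel endothelium or the mesodermal progenitors it comes from, and they were chosen by name for that role, with earlier results of these data known. All 10 have a row among the 24514 gene symbols of the count table. The cells came from mice or mouse embryonic stem cells (ESCs) that carry Hcn4-GFP, Tbx1-Cre and the Cre reporter Ai9, and every group described here shares these 3 alleles. GFP+ cells had Hcn4-GFP on, a reporter for the first heart field (FHF). RFP+ cells carried the red label that Ai9 keeps for good after Tbx1-Cre has acted, so RFP marks descendants of Tbx1-expressing cells, a second heart field (SHF) lineage, and not the Tbx1 level of the moment. In vivo cells were sorted from dissected parts of embryos, which the sample titles date to E8.5 and the protocol to E7.75, giving 5 GFP+ and 4 RFP+ wells. In vitro cells were sorted on day 5.5 from spheroids of ESCs derived from blastocysts of that genotype, giving 38 GFP+ and 46 RFP+ wells. The protocol lists Activin A, Bmp4 and Wnt proteins, singly or in combination, as inducers and does not say which of them a well received. Each of the 93 wells held 10 cells and gave 1 library. The labels do not tie wells to embryos or to differentiations, so all p-values measure the spread between wells only.

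Endothelial cells arise from mesoderm under the control of Etv2, an ETS-family transcription factor, and of Tal1 and Lmo2, which work together in one protein complex and also set up the blood lineage. Kdr and Flt1 are receptors for vascular endothelial growth factor (VEGF), and Kdr is already on in mesoderm that has not yet chosen between heart, vessel and blood. Tek (Tie2) is the angiopoietin receptor and Tie1 its close relative, and Pecam1, Cdh5 (VE-cadherin) and Emcn (endomucin) are proteins of the endothelial surface and cell junctions. In the heart, endothelium lines the chambers as endocardium, and both heart fields are known to contribute to it.

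ETS-family factors recognise DNA with the core GGAA, so the 250 bases before the start of 4 of the genes are printed to show where that core occurs: Kdr and Emcn, which had the largest differences in mean log2 CPM (prior count 2) between the populations in vitro and in vivo, Etv2, the ETS factor among the genes, and Tek, which ran against the others in edgeR's fit. The sequences are RefSeq's for GRCm38.p6, on the strand of each gene from 5′ to 3′, with GGAA and its reverse complement TTCC in capitals. Kdr lies at chr5:75978456-75978705 on the minus strand, Emcn at chr3:137340828-137341077 on the plus strand, Etv2 at chr7:30635853-30636102 on the minus strand and Tek at chr4:94739039-94739288 on the plus strand.
Kdr: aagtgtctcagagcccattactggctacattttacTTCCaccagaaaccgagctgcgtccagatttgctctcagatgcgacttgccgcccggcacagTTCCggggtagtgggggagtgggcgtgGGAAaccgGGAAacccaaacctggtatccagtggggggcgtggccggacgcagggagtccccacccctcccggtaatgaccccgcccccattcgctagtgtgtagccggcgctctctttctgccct
Emcn: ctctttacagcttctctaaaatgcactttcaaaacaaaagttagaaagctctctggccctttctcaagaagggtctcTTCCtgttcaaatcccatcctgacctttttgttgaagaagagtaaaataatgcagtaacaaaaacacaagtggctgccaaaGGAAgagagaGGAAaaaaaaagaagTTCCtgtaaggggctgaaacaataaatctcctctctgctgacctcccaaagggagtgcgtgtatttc
Etv2: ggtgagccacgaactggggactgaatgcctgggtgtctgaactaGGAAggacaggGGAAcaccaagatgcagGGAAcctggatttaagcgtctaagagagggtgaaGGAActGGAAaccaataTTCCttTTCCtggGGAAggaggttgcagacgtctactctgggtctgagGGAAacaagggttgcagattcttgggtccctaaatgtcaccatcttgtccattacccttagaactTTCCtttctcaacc
Tek: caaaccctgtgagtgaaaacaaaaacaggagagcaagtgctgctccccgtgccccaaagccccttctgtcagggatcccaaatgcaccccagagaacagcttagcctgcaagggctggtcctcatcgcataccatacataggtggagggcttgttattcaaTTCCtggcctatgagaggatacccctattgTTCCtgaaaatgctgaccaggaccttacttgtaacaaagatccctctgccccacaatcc
The core occurs 4 times in the Kdr and in the Emcn window, 10 times in the Etv2 window and 2 times in the Tek window. Of 32544 promoter windows of this length, 93.4% hold it at least once and the median is 3, and 0.187% hold it as often as Etv2, 33.5% as often as Kdr or Emcn and 76.9% as often as Tek. These matches describe the letters only, since binding was not measured in this series. RefSeq windows were found for 7 of the 10 genes, and Pecam1, Cdh5 and Lmo2 are given by name only.

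Between 712732 and 2525460 reads per in vivo GFP+ well were counted on genes, and between 1246546 and 1479957 per in vivo RFP+ well. The spheroid wells held 6288 to 4371849 reads in GFP+ cells and 445071 to 5658882 reads in RFP+ cells, and the smallest total belonged to GFP+ well C9, which was kept. Fewer genes were detected in the in vivo GFP+ wells (6189 to 8302) than in the in vivo RFP+ wells (10263 to 13052). Summed over 10 cardiomyocyte genes, the in vivo GFP+ wells held 20527 to 48952 CPM (a gene's count scaled to a total of 1000000 per well) and the in vivo RFP+ wells 1135 to 2301 CPM. By the well positions in the titles, the spheroid RFP+ cells sat in columns 1 to 6 and the spheroid GFP+ cells in columns 7 to 11. The in vivo GFP+ cells sat in rows A to E and the in vivo RFP+ cells in rows F to H. Neither shared a column with the spheroid cells of the same population. An effect of plate position therefore cannot be told apart from one of population or of source. In 7 plate rows the RFP+ wells of columns 3 and 4 differed less from each other (chi-square per degree of freedom 1.37 to 2.39) than the other RFP+ pairs did (2.68 to 14.2), yet by more than counting noise, and they were kept as separate wells.

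In the embryo, endothelial genes were found mainly in the RFP+ wells. Flt1, Emcn and Lmo2 were called higher in RFP+ cells, and in each of them every RFP+ well lay above every GFP+ well. Tek was the exception, since its highest levels were in 2 GFP+ wells. Pecam1 rested on the single RFP+ well F12. All CPM below were computed from each well's total counts. In pools of cells, fewer cells of a type and less RNA per cell cannot be told apart.

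Kdr (chr5:75932827-75978458, minus strand) encodes the main VEGF receptor of endothelium and its progenitors. Its levels in the 4 in vivo RFP+ wells F12, G11, G12 and H11 were 35, 36.9, 0.802 and 139 CPM. In the GFP+ wells A12, B12, C12, D12 and E12 they were 0, 13.5, 0, 15.9 and 0 CPM. The groups overlapped, because RFP+ well G12 held only 1 read. Flt1 (chr5:147561604-147726011, minus strand), the VEGF receptor that also acts as a decoy, stood at 22.6, 7.51, 9.63 and 27.7 CPM in RFP+ wells F12, G11, G12 and H11. It had 2 reads in GFP+ well B12 (0.792 CPM) and none in the other 4 GFP+ wells, so the groups did not overlap. The ratio of pooled Flt1 CPM was 63.2, with a 95% counting interval of 17.0 to 529, and 56.5 without F12 (15.0 to 477). Such intervals cover counting error only, because the reads carry no molecular identifiers.

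Tek (chr4:94739289-94874976, plus strand), the receptor for angiopoietin, was at 3.65, 21.2, 16.0 and 15.5 CPM in RFP+ wells F12, G11, G12 and H11. In GFP+ cells it was at 54.6 CPM in well B12 and at 101 CPM in well C12, and no read was found in wells A12, D12 and E12. Tek was thus present in every RFP+ well at a moderate level, and in the GFP+ wells it was either absent or higher than in any RFP+ well. Wells B12 and C12 held no read of Tie1, Pecam1, Cdh5, Emcn or Lmo2. Tie1 (chr4:118471191-118490061, minus strand), which pairs with Tek at the cell surface, had no read in any GFP+ well, 5.11 CPM in RFP+ well F12, 6.08 CPM in H11 and none in G11 and G12. Its mean in RFP+ cells was at least 1.07-fold above what 3 reads per GFP+ well would give, and without well F12 that bound was 0.776, which is uninformative, with well H11 the only other RFP+ well above 3 reads.

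The surface and junction genes had no read in any in vivo GFP+ well. Emcn (chr3:137341067-137432185, plus strand), a sialoprotein of venous and capillary endothelium, was at 49.6, 33.5, 35.3 and 47.3 CPM in RFP+ wells F12, G11, G12 and H11. Its mean of 41.4 ± 8.22 CPM (SD, n = 4) was at least 15.9-fold higher than 3 reads per GFP+ well would give, and at least 14.8-fold higher without F12. Cdh5 (chr8:104101625-104144511, plus strand), the cadherin of endothelial junctions, was at 5.84, 13.0, 0 and 11.5 CPM in the same order of wells, at least 2.90-fold higher with F12 and at least 3.12-fold without it. Its groups overlapped only through well G12, where no read was found. Pecam1 (chr11:106654217-106750628, minus strand), an adhesion molecule of endothelial and blood cells, had 24 reads in F12 (17.5 CPM), 1 read in G12 (0.802 CPM) and none in G11 and H11. Without F12 the RFP+ mean was 0.267 ± 0.463 CPM (SD, n = 3) in place of 4.58 ± 8.63 (SD, n = 4), and the other 3 wells show no level above the limit of 3 reads.

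The transcription factors were almost without reads in GFP+ cells. Etv2 (chr7:30633616-30635852, minus strand), which starts the endothelial program in mesoderm, was at 19.7, 38.9, 0 and 116 CPM in RFP+ wells F12, G11, G12 and H11, against 1 read in GFP+ well A12 (1.02 CPM) and none in the other 4 GFP+ wells. The pooled ratio was 339, with a counting interval of 60.3 to 13453, and 403 without F12 (71.5 to 15969). Tal1 (chr4:115056426-115071755, plus strand), a helix-loop-helix factor of blood and vessel progenitors, was at 5.11, 9.56, 0 and 19.6 CPM in the RFP+ wells and had 1 read in GFP+ well B12 (0.396 CPM). The pooled Tal1 ratio was 66.5 (11.4 to 2679), and 75.9 without F12 (12.9 to 3068). Lmo2 (chr2:103957986-103981878, plus strand), the bridging protein of the Tal1 complex, was at 12.4, 17.1, 20.1 and 15.5 CPM in the RFP+ wells and had no read in any GFP+ well. Its RFP+ mean of 16.3 ± 3.19 CPM (SD, n = 4) was at least 6.23-fold higher, and at least 6.72-fold higher without F12. Etv2 and Tal1 overlapped between the populations only because G12 lacked reads of both, while Lmo2 did not overlap.

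**Figure D1:**
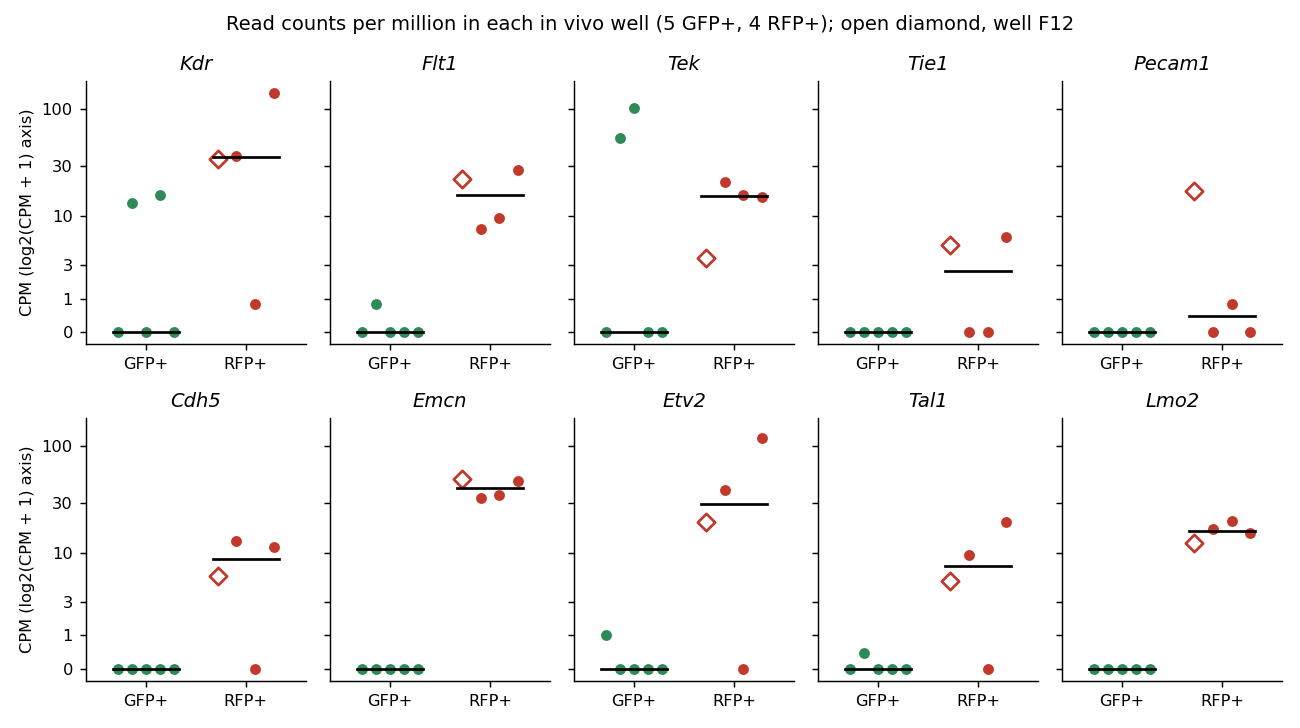
CPM of the 10 genes in each in vivo well, on a log2(CPM + 1) axis, with GFP+ wells in green, RFP+ wells in red, well F12 as an open diamond and medians as black lines. Flt1, Emcn and Lmo2 separate the populations, Tek is highest in 2 GFP+ wells at 54.6 and 101 CPM, and Pecam1 is high in F12 alone at 17.5 CPM.

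By edgeR's quasi-likelihood test, 5 of the 10 genes passed the filter on low counts, and 3 of them were called higher in RFP+ cells at a Benjamini-Hochberg adjusted p under 0.1. Over all genes, 528 of 8503 tested (6.21%) were called in that direction. The log2 fold change was 7.54 (SE 1.33, adjusted p = 0.0104) for Lmo2, 8.88 (SE 1.79, adjusted p = 0.0153) for Emcn and 5.79 (SE 1.35, adjusted p = 0.0157) for Flt1 by edgeR, and without F12 it was 7.67, 8.81 and 5.68, with all 3 still called. These fitted values depend on the model's treatment of zeros and are no bounds. Kdr, with a log2 fold change of 3.07 (SE 1.83, adjusted p = 0.516), and Tek, with -1.09 (SE 1.92, adjusted p = 0.916), missed the threshold in edgeR. Flt1, Emcn and Lmo2 passed the filter through their RFP+ wells, so their share of the 5 tested is a description only. Without the filter, edgeR called 7 of 10, adding Etv2, Tal1, Cdh5 and Pecam1, where 10.8% of all genes were called higher in RFP+ cells. The Pecam1 call (adjusted p = 0.0972 in edgeR without the filter) rests on F12, which held 96.0% of its RFP+ reads. This fit was not rerun without F12. DESeq2 called 6 of 10, adding Etv2, Tal1 and Cdh5, against 12.3% of all genes. Of the 10 genes, 3 had RFP+ wells that all lay above all GFP+ wells, with or without F12. Over the 15111 genes with a read, this held for 1771 (11.7%) with F12 and for 1978 without it.

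A two-sided exact permutation test of the mean log2 CPM, with a prior count of 2, called none of the 15111 genes in vivo, where 9 wells allow 126 splits. At an unadjusted p under 0.05, 2953 genes passed this exact permutation test, among them Flt1, Emcn and Lmo2. Their exact p of 0.0159 is the smallest this design can give, and their adjusted p was 0.113. Without F12 their exact permutation p was 0.0357, the smallest that 8 wells give, and their adjusted p was 0.223. All 10 genes had a higher mean log2 CPM in RFP+ than in GFP+ cells, with differences from 1.04 for Tek to 4.95 for Emcn, beside a median difference of 0.78 in the same direction over all 15111 genes. Tek, Pecam1 (1.11) and Tie1 (1.17) lay near that median. For Tek this sign is opposite to that of its edgeR fold change, where 2 GFP+ wells hold the highest counts. Of the 10 genes, 5 (Tie1, Pecam1, Cdh5, Emcn and Lmo2) had no read in any GFP+ well, and so did 16.7% of the 6934 genes whose RFP+ mean lay in the same range of 2.80 to 52.8 CPM.

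The number of the 10 genes with a read separated the populations in every well. RFP+ wells F12, G11, G12 and H11 had reads for 10, 8, 6 and 9 of them, and GFP+ wells A12, B12, C12, D12 and E12 for 1, 4, 1, 1 and 0. The lower number of genes detected over all genes in GFP+ wells moved with this, and its part in the result was not tested. Embryonic globin reads were high in well F12. Hbb-y was at 389 CPM, Hba-x at 391 CPM and Hbb-bh1 at 374 CPM, while the highest value in the other 8 in vivo wells was 1.09 CPM. These 3 led the 10 genes that set F12 furthest above the others, followed by Neurod4, Mfsd9, St18, Birc3, Krt15, Kif5a and Enpp3. Summed over 20 blood genes, F12 was at 1170 CPM, the other RFP+ wells at 19.8 to 45.7 CPM and the GFP+ wells at 41.6 to 243 CPM. The GFP+ sums were almost all Cd44, with a mean of 144 CPM, and 15 of the 20 genes had no read in GFP+ cells. Of the 10 endothelial genes, 1 (Pecam1, ranked 13) was among the first 100 of the 15111 genes ordered by the gap between F12 and the next well, and 2 were highest in F12. The blood markers Gata1, Itga2b, Ptprc and Spi1 had no read in any in vivo RFP+ well. Kdr was 9.0-fold higher in RFP+ cells with F12 and 10.0-fold without it, while its edgeR log2 fold change went from 3.07 to 1.94 without well H11, and Tek was 2.21-fold higher in GFP+ cells with F12 and 1.77-fold without it.

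Ligands and further endothelial genes were read from lists. Of 10 VEGF, angiopoietin and coreceptor genes in the table, 7 were tested by edgeR in vivo and 2 were called, both higher in GFP+ cells. Angpt1, the ligand that activates Tek, was at 1264 CPM in GFP+ and 17.4 CPM in RFP+ cells (log2 fold change -6.16, SE 0.61, edgeR adjusted p = 6.2e-05). Nrp1, a VEGF coreceptor, was at 724 and 43.3 CPM (log2 fold change -4.07, SE 0.34, edgeR adjusted p = 2.1e-05). Among 12 endothelial transcription factors 6 were tested and 2 called, both ETS factors that were higher in RFP+ cells. Ets2 was at 0 CPM in GFP+ and 19.3 CPM in RFP+ cells, and Fli1 at 0.408 and 40.0 CPM. Among 28 other surface and junction genes 8 were tested and 3 called higher in RFP+ cells. They were Ramp2, a receptor-modifying protein of the adrenomedullin system, at 0 and 63.8 CPM, Cd34 at 0 and 18.2 CPM, and the secreted factor Egfl7 at 12.1 and 136 CPM, which was no longer called without F12 (edgeR adjusted p = 0.169). Ets2, Ramp2 and Cd34 had no read in GFP+ cells and passed the filter through the RFP+ wells. Over all genes 528 of 8503 were called higher in RFP+ and 330 in GFP+ cells. Of 20 blood genes 1 was tested, Cd44, which was called higher in GFP+ cells (edgeR adjusted p = 0.0800) but not without F12 (edgeR adjusted p = 0.169), and of the macrophage list none was tested.

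In the spheroids 8 of the 10 were higher in RFP+ than in GFP+ cells by the permutation test. Kdr had reads in all 46 RFP+ wells. Pecam1 and Tek ran the other way, with reads in a larger share of the GFP+ wells.

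Kdr ranged from 0.444 over a median of 13.5 to 51.0 CPM in the RFP+ wells, and from 0 over a median of 0.310 to 5.47 CPM in the GFP+ wells. The populations overlapped at the low end, and the mean was 13.5-fold higher in RFP+ cells (16.1 ± 12.3 against 1.19 ± 1.67 CPM, SD, n = 46 and 38). Flt1 had a median of 3.82 CPM in RFP+ cells, with a range of 0 to 13.7, and a median of 0.140 CPM in GFP+ cells, with a range of 0 to 6.69. Tek had a median of 3.89 CPM in GFP+ cells, where 36 of 38 wells had reads, and of 1.08 CPM in RFP+ cells, where 24 of 46 did. Its highest wells were alike, at 36.4 CPM in GFP+ and 37.4 CPM in RFP+ cells, and its mean was 1.34-fold higher in GFP+ cells. Tie1 had reads in 9 RFP+ and 4 GFP+ wells and reached 2.76 and 0.559 CPM.

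Emcn had reads in 20 of 46 RFP+ wells, up to 46.1 CPM, and in 2 of 38 GFP+ wells, up to 1.80 CPM. Cdh5 had reads in 17 RFP+ wells, up to 15.6 CPM, and in 6 GFP+ wells, up to 2.52 CPM. The median of both genes was 0 in each population, so a minority of wells carried them. Pecam1 had reads in 29 of 38 GFP+ wells with a median of 1.95 CPM and a highest value of 19.6 CPM, and in 13 of 46 RFP+ wells with a median of 0 and a highest value of 7.03 CPM. Of the 3 surface genes it was the one that was higher in GFP+ cells, by 3.68-fold in mean CPM. Etv2 had a median of 5.43 CPM in RFP+ cells, with a range of 0 to 45.7, and of 0.778 CPM in GFP+ cells, with a range of 0 to 4.83. Lmo2 had a median of 5.46 CPM in RFP+ cells, with a highest value of 29.6, and of 1.16 CPM in GFP+ cells, with a highest value of 6.94. Tal1 was found in 16 RFP+ and 5 GFP+ wells and reached 12.3 and 1.79 CPM.

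**Figure D2:**
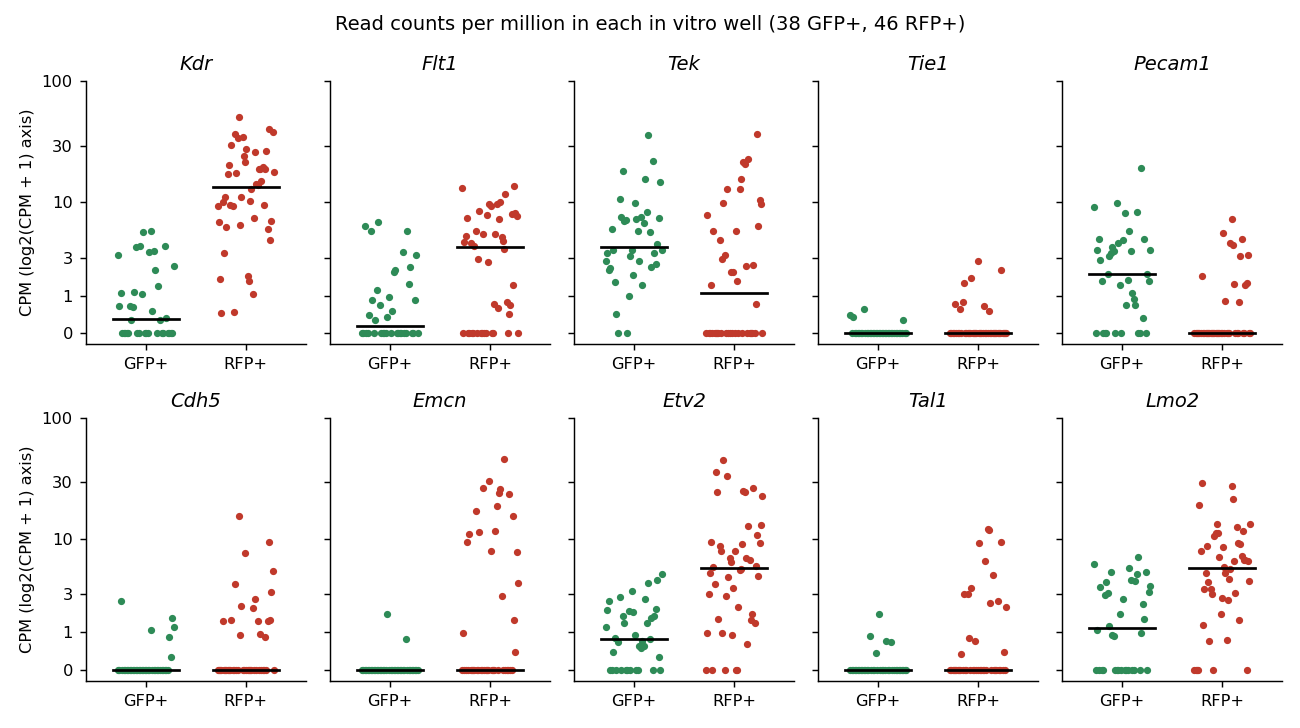
CPM of the 10 genes in each in vitro well, on a log2(CPM + 1) axis, with 38 GFP+ wells in green, 46 RFP+ wells in red and medians as black lines. Kdr, Etv2 and Lmo2 are shifted upward in RFP+ cells, Emcn, Cdh5 and Tal1 rise in a minority of RFP+ wells, and Pecam1 lies higher in GFP+ cells.

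Only Kdr passed edgeR's filter in vitro, with a log2 fold change of 3.58 (SE 0.34, adjusted p = 1.0e-16), where 37.8% of the 9940 genes tested were called higher in RFP+ cells. The permutation test, which takes every gene with a read, called all 10 at an adjusted p under 0.1. It took the near-identical RFP+ pairs as separate wells and was not rerun with them summed. Of these, 8 were higher in RFP+ cells, against 23.8% of all 21827 genes, and 2 were higher in GFP+ cells, against 26.0%. The differences in mean log2 CPM were 2.75 for Kdr, 1.61 for Etv2 and 1.25 for Lmo2, and their permutation p of 2.0e-05 is the smallest that 100000 resamples give. They were 1.39 for Emcn (adjusted permutation p = 1.5e-04), 0.97 for Flt1 (0.00131), 0.58 for Tal1 (0.00377), 0.49 for Cdh5 (0.00985) and 0.15 for Tie1 (0.0837). The permutation test lost Tie1 at a prior count of 0.5 (adjusted p = 0.122). Pecam1 differed by -0.97 (adjusted permutation p = 2.1e-04) and Tek by -0.87 (adjusted permutation p = 0.0174).

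Count models over more genes gave Pecam1 the same direction and did not call Tek. edgeR without the filter called 8 of 10 higher in RFP+ cells (24.7% of all genes) and 1, Pecam1, higher in GFP+ cells (35.3% of all genes). Tek then had a log2 fold change of -0.46 (SE 0.41, adjusted p = 0.342). DESeq2 called 7 higher in RFP+ cells (26.7% of all genes) and again Pecam1 higher in GFP+ cells (39.1%), and gave Tie1 no adjusted p. Emcn had the largest fold change among the 10 in edgeR without the filter, a log2 of 5.46 (SE 0.67, adjusted p = 8.7e-12).

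Pecam1 is also known to be on in mouse ESCs, and most of the pluripotency genes tested were, like Pecam1, higher in GFP+ cells. Of 10 pluripotency genes 8 were tested by edgeR in vitro, and 7 were called higher in GFP+ cells and none in RFP+ cells, where 3985 of all 9940 genes tested were called higher in GFP+ cells. The 4 with the largest change were Dppa5a (231 CPM in GFP+ and 19.1 CPM in RFP+ cells), Zfp42 (34.7 and 3.23 CPM), Dppa4 (log2 fold change -3.21, edgeR adjusted p = 1.6e-29) and Tfcp2l1 (32.4 and 3.62 CPM). The summed level of the list ran from 135 to 1721 CPM in GFP+ and from 8.50 to 594 CPM in RFP+ wells, and their part in the Pecam1 difference was not tested. In the macrophage list 1 gene was tested, Cd68, which was called higher in GFP+ cells (139 and 17.7 CPM). The summed list ran from 77.6 to 222 CPM in GFP+ and from 0 to 69.4 CPM in RFP+ wells, and was mostly Cd68. The next highest mean of the list in GFP+ cells was 4.46 CPM, for Mrc1.

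The other endothelial lists held edgeR calls in both directions in vitro, as did all genes (3762 of 9940 called higher in RFP+ and 3985 in GFP+ cells). Among 28 surface and junction genes 8 were tested by edgeR, 4 were called higher in RFP+ and 3 in GFP+ cells. Aplnr, the apelin receptor of cardiac and vascular mesoderm, was at 51.8 CPM in RFP+ and 3.64 CPM in GFP+ cells (log2 fold change 3.69, SE 0.24, edgeR adjusted p = 1.0e-26), and Ramp2 at 44.5 and 11.3 CPM. Thsd1 was higher in GFP+ cells, at 14.4 and 3.00 CPM, as was the TGF-beta coreceptor Eng, at 9.92 and 2.32 CPM. Of 12 endothelial transcription factors 4 were tested, with Ets2 and Elk3 called higher in RFP+ cells and Ets1 and Nfatc1 in GFP+ cells. Of 10 VEGF and angiopoietin genes 8 were tested, 3 were called higher in RFP+ cells, led by Nrp2 (log2 fold change 1.05, edgeR adjusted p = 4.2e-07), and 4 in GFP+ cells, among them Vegfc, Angpt2 and Vegfa. The permutation test took every gene of these lists. It called 7 of the 12 transcription factors higher in RFP+ and 1 in GFP+ cells. For the 28 surface and junction genes these numbers were 12 and 5, and for the 10 VEGF and angiopoietin genes 4 and 2. Over all genes it called 23.8% higher in RFP+ and 26.0% in GFP+ cells.

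**Figure D3:**
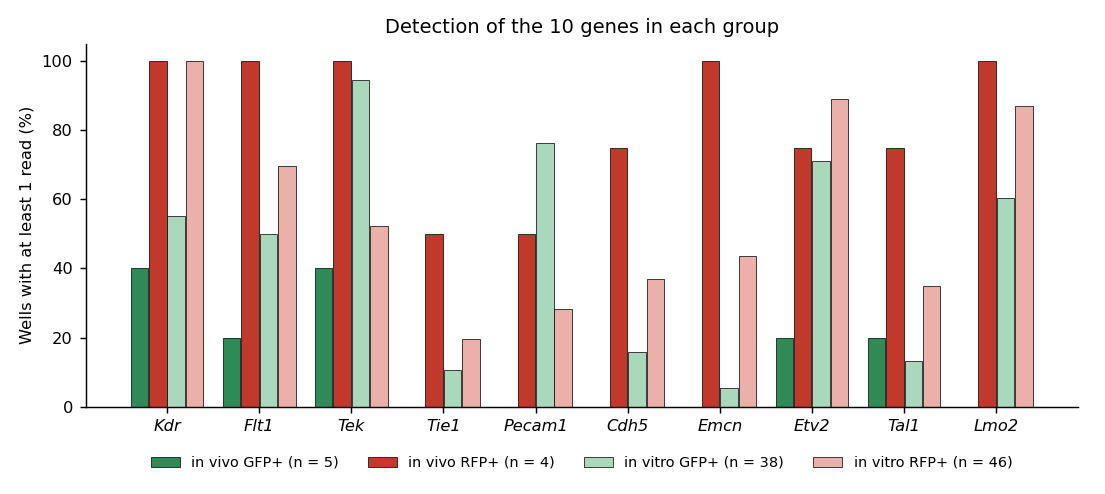
Percent of wells with at least 1 read of each gene in the 4 groups, as bars from 0. Each gene had reads in a larger share of RFP+ than of GFP+ wells of the same source, except Tek and Pecam1 in vitro.

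Across the in vitro RFP+ wells, most but not all pairs among Emcn, Tek, Cdh5, Tal1 and Etv2 were correlated in level. Over 46 wells, Pearson's r between log2 CPM was 0.73 for Tek and Emcn (Spearman's rho 0.80) and 0.73 for Emcn and Tal1 (rho 0.65). It was 0.61 for Tek and Tal1 (rho 0.60), 0.60 for Cdh5 and Emcn (rho 0.64), 0.58 for Tek and Cdh5 (rho 0.58), 0.57 for Emcn and Etv2 (rho 0.53) and 0.54 for Etv2 and Tal1 (rho 0.52). These 7 of the 45 pairs had both measures at 0.5 or more, and the median r of all 45 was 0.34. Emcn had reads in 20 wells, all of which had Etv2 reads, as did 41 of the 46 wells. Kdr, found in every RFP+ well, had r 0.45 with Etv2 and 0.38 with Emcn. Pecam1 had r 0.48 with Tal1, 0.34 with Lmo2, 0.30 with Emcn and 0.07 with Cdh5.

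These correlations describe wells whose labels name no plate or preparation, and genes with many zeros. With only 1 well kept of each near-identical pair (39 wells), r was 0.73 for Tek and Emcn and 0.69 for Emcn and Tal1. Without the 2 wells furthest from the median of the first gene, r was 0.69 and 0.77. The correlation of the 10 genes with log2 of the total count ran from -0.16 to 0.26 in RFP+ wells. In the 38 GFP+ wells no pair reached 0.5 in both measures, the median r was 0.09, and the highest was 0.43 for Tek and Pecam1. The difference between the populations was not tested, and in GFP+ cells Emcn, Tal1, Tie1 and Cdh5 had reads in 2 to 6 wells.

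**Figure D4:**
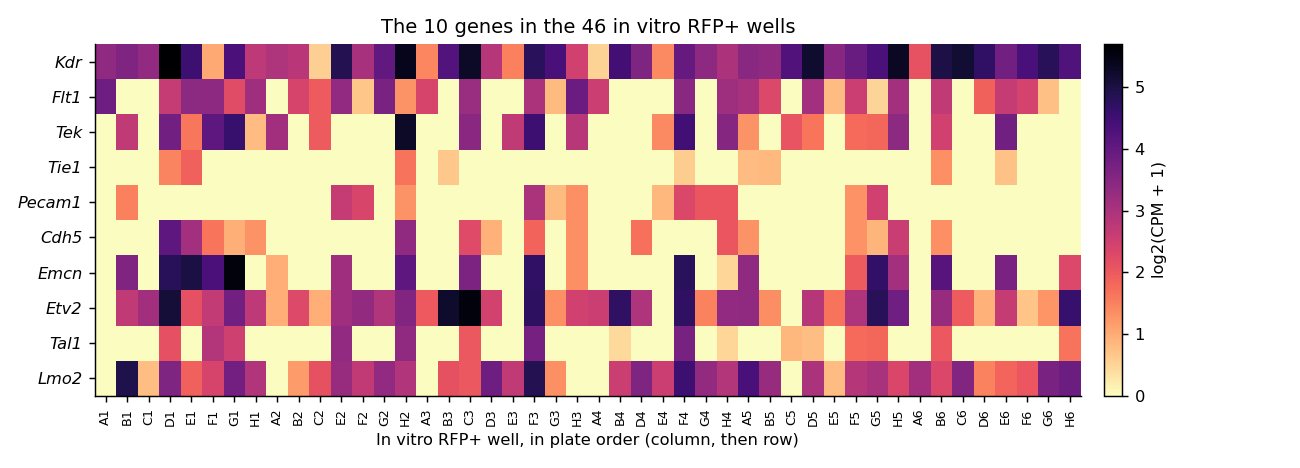
log2(CPM + 1) of the 10 genes (rows) in the 46 in vitro RFP+ wells (columns, in plate order), from pale yellow for 0 to black for the highest. Kdr is present in every well, and Tek, Emcn, Etv2 and Tal1 are all dark in columns such as F3, F4 and H2, of which F3 and F4 are a near-identical pair.

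Kdr was the one gene of the 10 with enough reads for a search for genes of like pattern. The 5 genes with the highest r over all 84 in vitro wells were Foxc2, Foxd2os, Mn1, Abca9 and Psma7, at 0.76 to 0.77. These values pool both populations, and within them r ran from -0.16 to 0.19 over the 38 GFP+ wells and from 0.10 to 0.48 over the 46 RFP+ wells, with Mn1 the highest in each.

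Within the RFP+ lineage, most of the genes that could be tested were called higher in the embryo than in the spheroid, and the number depended on single wells. By edgeR, 8 of the 10 were tested and 7 were called higher in vivo, where 20.1% of the 11147 genes tested were called in that direction. Emcn was 6.35-fold higher in mean CPM (41.4 ± 8.22 against 6.53 ± 10.8 CPM, SD, n = 4 and 46), with a log2 fold change of 2.69 (SE 0.83, edgeR adjusted p = 0.00856). Etv2 had a log2 fold change of 2.29 (SE 0.61, edgeR adjusted p = 0.00233), Kdr of 1.77 (0.50, 0.00371), Flt1 of 2.07 (0.69, 0.0145), Cdh5 of 2.54 (0.87, 0.0176), Tal1 of 2.43 (0.89, 0.0264) and Lmo2 of 1.28 (0.61, 0.0965), each with its SE and edgeR adjusted p. Tie1 and Pecam1 were not tested by edgeR, and Pecam1 had a mean of 0.267 CPM in vivo without F12 and 0.853 CPM in vitro. Tek, at 1.58 (SE 0.92, edgeR adjusted p = 0.179), was not called.

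The calls depended on well H11, the RFP+ well with the highest Kdr, Etv2 and Tal1. Without H11, edgeR called only Emcn and Cdh5 of the 8, and the adjusted p was 0.488 for Kdr, 0.300 for Etv2, 0.290 for Tal1, 0.114 for Flt1 and 0.156 for Lmo2. Without F12, edgeR called 6, with Lmo2 lost (adjusted p = 0.114). DESeq2 called Kdr, Flt1 and Etv2 among 9 given an adjusted p, where 18.3% of all genes were called higher in vivo. The exact permutation test called 7 of 10 higher in vivo (10.0% of all genes), namely Flt1, Tek, Tie1, Cdh5, Emcn, Tal1 and Lmo2. Kdr and Etv2 missed it (adjusted exact permutation p = 0.417 and 0.233), with well G12 low in both genes, and so did Pecam1 (0.446). Without F12 the exact permutation test called Flt1, Tek, Emcn and Lmo2. Emcn and Flt1 were called by edgeR and by the permutation test both with and without F12.

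Within the GFP+ population, edgeR tested 2 of the 10 genes between sources and called both. Pecam1 was higher in vitro (3.14 ± 3.84 CPM, SD, n = 38, against no read in the 5 in vivo wells), at least 1.20-fold higher than 3 reads per in vivo well would give (log2 fold change -5.62, SE 1.52, edgeR adjusted p = 0.00141). Tek was higher in vivo (31.1 ± 45.7 against 6.55 ± 7.11 CPM, SD, n = 5 and 38), with a log2 fold change of 1.97 (SE 0.64, edgeR adjusted p = 0.00657). The Tek value rests on 2 wells, and without C12 it was 1.08 (edgeR adjusted p = 0.195). Over all genes 19.7% were called higher in vivo and 48.3% higher in vitro. The median log2 fold change over all genes was -0.67, and -0.22 with the size factors of DESeq2 in edgeR. By the exact permutation test Pecam1 (adjusted p = 0.0149) and Lmo2 (adjusted p = 0.0811) were higher in vitro, where 35.4% of all genes were called, and Tek differed by 0.03. Without the filter, edgeR called 5 of 10, adding Kdr higher in vivo (13.7% of all genes) and Lmo2 and Etv2 higher in vitro (42.1% of all genes).

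**Figure D5:**
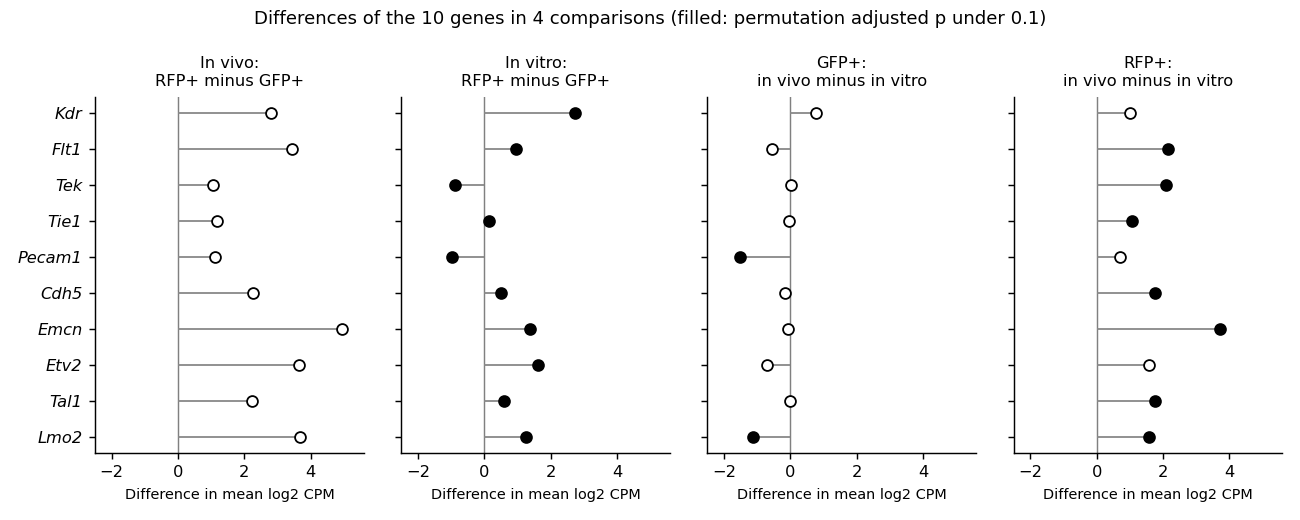
Difference in mean log2 CPM (prior count 2) of the 10 genes in the 4 comparisons, with filled points for a permutation adjusted p under 0.1. No point is filled in vivo, where the lowest adjusted p of the 10 genes was 0.113, and Tek and Pecam1 are the 2 genes below 0 in vitro.

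Of the lists, the surface and junction genes, the longest list, gave the most calls in RFP+ cells between sources. A rise in vivo was not particular to endothelial lists, since all 8 cardiomyocyte genes tested by edgeR were called higher in vivo too. Of 28 surface and junction genes 14 were tested and 10 called higher in vivo and none lower (7 of 15 without F12), where 20.1% of all genes were called higher in vivo, led by Cldn5, a tight junction protein, at 13.1 CPM in vivo and 0.863 CPM in vitro (log2 fold change 3.95, SE 0.74, edgeR adjusted p = 2.0e-05). Of 12 transcription factors 10 were tested and 5 called higher in vivo, led by Sox18 (11.6 and 1.31 CPM) and Sox7 (10.6 and 1.58 CPM), and without F12 the number was 4 of 11. Of the 10 VEGF and angiopoietin genes all were tested and 6 were called higher in vivo, among them Angpt1, the lymphatic VEGF receptor Flt4, Vegfc and Nrp2. Without F12 the number for this list was 5 of 10. Of 20 blood genes 1 was tested and none was called.

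The effect of population on Kdr could be compared between sources, because Kdr was tested by edgeR in both. Its log2 fold change was 3.07 in vivo and 3.58 in vitro, a difference of -0.51 (SE 1.86). The difference was within its error (adjusted p = 0.970 over 8182 genes tested by edgeR in both sources), and an SE of this size leaves room for either source to have the larger effect. The other 9 genes were not tested in this way.

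Set against their exon length, Etv2 had the highest mean level of the 10 in RFP+ cells of both sources. In vivo the order in RFP+ cells was Etv2 at 41.5 CPM per kilobase of exon, then Emcn at 7.66, Lmo2 at 7.51, Kdr at 5.85, Tek at 2.99, Tal1 at 1.96, Cdh5 at 1.80, Flt1 at 1.25, Pecam1 at 0.735 and Tie1 at 0.569. Well H11 held 67.1% of the in vivo RFP+ Etv2 reads. In vitro it was Etv2 at 8.65, Lmo2 at 3.25, Kdr at 1.78, Emcn at 1.21, Tek at 1.03, Tal1 at 0.361, Cdh5 at 0.319, Flt1 at 0.302, Pecam1 at 0.137 and Tie1 at 0.0503 CPM per kilobase. In GFP+ cells Tek led in both sources, at 6.61 CPM per kilobase in vivo and 1.39 in vitro. In none of the 4 groups were neighbours in the order further apart than the larger of their 2 SDs.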

How the data were processed

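RNA from 93 wells of 10 sorted cells was measured. Per the labels and the study's methods, the authors trimmed reads with Trimmomatic 0.36, aligned them to mm10 with HISAT2 2.0.4 and counted reads per gene with featureCounts 1.5.2 of Subread, and deposited the raw counts with no normalization. The strand setting and annotation of the counting are not given in the sources used here, and reads carry no molecular identifiers, so intervals and floors cover counting error only. Wells were grouped by their labels. The 10 genes, lists and tests were chosen with earlier results of these data known.

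CPM used each well's total count, which ran from 6288 to 5658882. Each pair of groups was fitted alone with edgeR 4.0.16 in R 4.3.3 (filterByExpr, TMM, quasi-likelihood test), with Benjamini-Hochberg adjustment over all genes tested and a threshold of 0.1, the study's own. A two-sided permutation test of mean log2 CPM (prior count 2) took every gene with a read, by exact enumeration or, in vitro, 100000 resamples. All 2645 symbols with no count in any well stayed out of the tests. The code was tested on simulated data. Named are the 10 genes, up to 4 called genes per list and comparison by size of change, the 5 genes most like a gene that passed the filter in vitro, and the 10 genes highest in F12. Where a group had no read, a floor of 3 reads per well gave the bound. Alternatives were DESeq2 1.42.0, other scalings (DESeq2 size factors, TMMwsp, total counts), no filter, a robust fit, an adjusted p under 0.05, a prior count of 0.5, leaving out single wells and summing near-identical pairs. Near-identical pairs were summed in edgeR only. Keeping 1 well of each near-identical pair in the correlations was chosen after seeing the data. Exon lengths and positions come from GENCODE M21 (GRCm38), promoter sequences from RefSeq (GRCm38.p6).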

Additional observations from a re-analysis of the deposited data

Results flagged for a closer look

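In 4 cases 1 in vivo well stood further from the rest of its group than Dixon's 95% critical value allows, which chance alone gives in about 1 of 20 groups where values are not tied. Pecam1 in RFP+ cells was at 17.5 CPM in well F12 and at most 0.802 CPM in the other 3 wells. Among GFP+ cells, where all other wells had no read, Flt1 was at 0.792 CPM in well B12 (2 reads), Tal1 at 0.396 CPM in well B12 (1 read) and Etv2 at 1.02 CPM in well A12 (1 read). For these 3 values the test says nothing, since any read beside wells with none gives the largest possible ratio, and all 3 lie under the floor of 3 reads.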

How the results depend on the processing

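In vivo, 858 genes and 3 of the 10 were called by edgeR, against 1936 and 6 by DESeq2 and 2000 and 7 without the filter, both of which test more genes. Leaving out 1 well gave 613 to 1044 genes and 2 to 4 of the 10, with Flt1 under the filter without B12, D12 or H11 and Etv2 added without G12. In vitro, edgeR called 7747 genes and 1 of the 10, against 8 of the 10 by DESeq2 and 13109 genes and 9 of the 10 without the filter. For GFP+ cells between sources, 2 of the 10 were called, 5 by DESeq2, 5 without the filter and 1 to 2 with 1 well left out. The 2326 genes higher and 5710 lower in vivo became 3473 and 4687 with DESeq2 size factors, and the median of all genes moved from -0.67 to -0.22, and from 0.09 to -0.04 in vivo. For RFP+ cells between sources, 7 were called, 3 by DESeq2 and 2 to 6 with 1 in vivo well left out, the lowest without H11. The permutation difference reversed from 0.03 to -0.81 for Tek and from -0.01 to 0.01 for Tal1 at a prior count of 0.5 (GFP+ cells between sources), and from 0.70 to -0.22 for Pecam1 without F12 (RFP+ cells between sources). The cause was not tested. No paired analysis was possible because the groups share no replicate numbers. Depth limits the low genes.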
